A study of Mus musculus with 6 samples.

Results

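The proteasome family of bone marrow-derived mast cells (BMMCs) was described here as the genes whose symbol is Psm, a class letter from a to g and a number. A gene entered where the platform annotation gave an array row that symbol alone, and 46 of the 30102 genes with such a row were members. They were 8 Psma, 10 Psmb, 6 Psmc, 14 Psmd, 3 Psme, 1 Psmf and 4 Psmg genes, each measured by 1 row, and no measured value entered the choice. Psmb5 and Psme2 were not analysed here, because the 1 row of Psmb5 and the 2 rows of Psme2 carry several symbols. The cells were grown from C57BL/6J femur marrow for 6 weeks in medium with interleukin 3 and stem cell factor, which came as supernatant of CHO-KL cells. The ionomycin group (3 arrays) received 1 µg/mL of ionomycin, an ionophore that carries calcium into the cell, in Tyrode's buffer for 1 h. The naive group (3 arrays) received the buffer alone, and both groups were then washed and kept in medium for 3 h, so that total RNA was taken 4 h after the start. Nothing in the labels ties the replicates to different cultures or mice, so the p-values cover the spread among these samples alone, and that spread may be technical.

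The proteasome is the protease that degrades proteins tagged with ubiquitin. Its barrel-shaped core has outer rings of alpha subunits (Psma), which gate the entrance, and inner rings of beta subunits (Psmb), some of which cut the substrate. A cap on the core binds, unfolds and feeds in the substrate with a ring of ATPases (Psmc) and a set of subunits without ATPase activity (Psmd), while Psme genes encode other activators, Psmf1 an inhibitor and Psmg genes chaperones of core assembly. Interferon-inducible beta subunits can replace the constitutive ones in the immunoproteasome, which favours peptides for class I antigen presentation. In stimulated leukocytes the proteasome also destroys the inhibitor that holds NF-kB in the cytoplasm.

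Promoter sequences of the members were searched for motifs of regulators known from this family. RefSeq (GRCm38.p6) gave a promoter, here the 250 bases before to 50 after a start, for 38 of the 46 members, which had 40 promoters between them, and 32851 promoters of that length served as the comparison. The antioxidant response element was searched because factors such as Nfe2l1 bind it when proteasome genes are induced. Its letters TGACNNNGC, on either strand, were present in 5 member promoters (12.5%), against 12.4% of all promoters. The windows of these 5 follow, with the element in capitals, in the direction of the gene and with up to 20 bases on each side. Elements on the other strand read from GC to TCA.
Psmb6 (chr11:70525328-70525376, forward strand): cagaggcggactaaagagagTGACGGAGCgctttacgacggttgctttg
Psmc6 (chr14:45329577-45329625, forward strand): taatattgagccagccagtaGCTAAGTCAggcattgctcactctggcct
Psmd9 (chr5:123228139-123228187, forward strand): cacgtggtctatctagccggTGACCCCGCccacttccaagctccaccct
Psmd12 (chr11:107479278-107479309, forward strand): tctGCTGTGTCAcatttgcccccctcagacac
Psme4 (chr11:30771748-30771796, forward strand): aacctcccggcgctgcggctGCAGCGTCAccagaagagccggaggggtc
The match of Psmd9, an assembly factor of the cap's base, overlapped another searched motif, and the other 4 did not. Psmb6 encodes a constitutive catalytic subunit, Psmc6 an ATPase, Psmd12 a subunit of the cap's lid and Psme4 a nuclear activator. The matches describe letters only.

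The ETS site CCGGAAG, on either strand, was present in 15 of the 40 member promoters (37.5%), belonging to 14 members, against 8.86% of all promoters. Its windows are shown for the Psmc ATPases, the class with the largest share of its spread along the replicate number. Of that class only Psmc1, Psmc2 and Psmc6 had a match, and members of other classes had one too. A link between site and spread was not tested. Capitals mark the site, which reads CTTCCGG where it lies on the other strand.
Psmc1 (chr12:100110154-100110200, forward strand): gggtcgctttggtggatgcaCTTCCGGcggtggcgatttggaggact
Psmc2 (chr5:21785171-21785217, forward strand): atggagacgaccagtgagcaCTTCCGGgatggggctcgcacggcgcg
Psmc2 (chr5:21786703-21786749, forward strand): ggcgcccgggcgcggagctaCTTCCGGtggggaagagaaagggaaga
Psmc6 (chr14:45329704-45329750, forward strand): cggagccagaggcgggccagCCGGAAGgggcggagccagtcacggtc
Psmc2 has a match in the promoter of each of its 2 listed starts. No test was made of this share, and a match does not show that a factor binds. Of the other motifs searched on both strands, the GC box GGGCGG was in 22 member promoters (55%, against 35.7% of all) and the CCAAT box in 14 (35%, against 37.4%). The heat shock element GAANNTTC was in 2 (5%, against 7.86%) and the GAS element TTCNNNGAA, which interferon-activated STAT factors bind, in 3 (7.5%, against 8.3%).

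The arrays gave log2 signals, and 3 arrays per group limit the precision. Background was taken as a log2 signal of 5.99, and all 46 members averaged above it, as did 19200 of all genes. All 9 mast cell markers were above background, with a summed level of 16.10 to 16.12 in ionomycin arrays and 16.16 to 16.22 in naive arrays. The brightest markers carry this sum. Of the marker lists of other cells, 3 of 3 basophil, 5 of 5 measured macrophage, 5 of 6 neutrophil, 1 of 5 dendritic cell, 3 of 5 measured lymphocyte and 3 of 3 measured erythroid and megakaryocyte genes were above it. The dendritic cell genes Flt3, Clec9a, Xcr1 and Zbtb46, the lymphocyte genes Cd3g and Ms4a1, and S100a8 were not. Summed levels in ionomycin and naive arrays were 9.68 to 10.08 and 9.63 to 10.01 for macrophage genes. For neutrophil genes they were 9.24 to 9.27 and 9.14 to 9.25. Dendritic cell genes had 7.94 to 8.05 and 7.80 to 7.90, and lymphocyte genes 8.84 to 9.14 and 8.44 to 8.53. Erythroid and megakaryocyte genes had 11.69 to 11.74 and 11.61 to 11.88. In such a bulk culture, fewer cells of a type and less RNA per cell cannot be told apart. In both groups the replicate 1 array was unlike the other 4 arrays. A first principal component with 52.6% of the variance of all genes put them at -21.2 (ionomycin) and -48.0 (naive), against 13.03 to 21.9 for the others, so member results are also given without them.

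No proteasome gene passed the test at 4 h. By limma, with Benjamini-Hochberg adjustment over all genes and a threshold of 0.05, 0 of the 46 members were higher and 0 lower, against 0.289% and 0.0598% of all genes, and the smallest adjusted p was 0.200 (Psmg3). At an unadjusted p under 0.05, 3 members were higher (6.52%, against 10.2% of all genes) and 1 was lower (2.17%, against 5.44%). The 3 were Psmg3, Psmb11 and Psmd5, and the lower gene was Psmd10. Of genes above background 12.3% were higher and 8.22% lower at that unadjusted threshold. The member differences, ionomycin minus naive, ran from -0.32 (Psmg2) to 0.32 (Psmd5) on the log2 scale. Of them 20 were above 0 and 26 below (56.5%, against 35.4% of all genes and 40.9% of genes above background). Their median was -0.02, against 0.05 over all genes. After centring each array on its median the members' median was -0.08 and that of all genes -0.01.

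The size of the differences was bounded by their intervals. Every one of the 46 differences was under 1.3-fold in size, as were 90.1% of the differences of genes above background. The 95% confidence intervals lay within 2-fold either way for 46 members and within 1.5-fold for 35 (76.1%, against 77.6% of genes above background). With the replicate number as a block in the limma fit, the interval lay within 1.5-fold for 43 members (93.5%, against 86% of genes above background). Again 0 members were higher and 0 lower, against 0.395% and 0.11% of all genes (smallest adjusted p = 0.111, Psmb11). At an unadjusted p under 0.05 that fit had 3 members higher (6.52%, against 16% of all genes) and 4 lower (8.7%, against 9.41%). The 3 were Psmg3, Psmb11 and Psmd14, and the 4 were Psmd10, Psmb9, Psma1 and Psmc2. Of genes above background that fit had 20.1% higher and 14.2% lower at the same unadjusted threshold.

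Further fits that treated replicate 1 apart gave no member call either. With a block of 2 levels, replicate 1 against replicates 2 and 3, 0 members passed in each direction, against 2.25% of all genes higher and 2.47% lower (limma, smallest adjusted p = 0.0595, Psma1). Without both replicate 1 arrays 0 members passed, against 1.41% higher and 1.43% lower (limma, smallest adjusted p = 0.0781, Psmb9). Both fits were chosen after the data were seen.

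**Figure D1:**
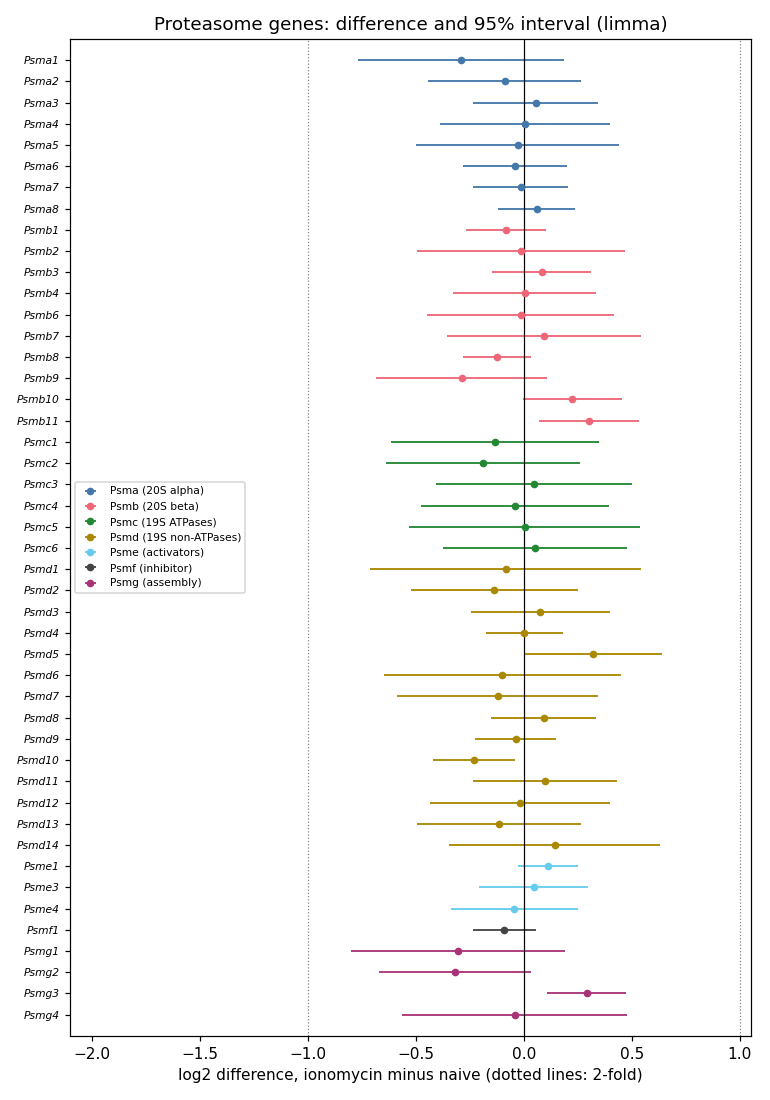
The log2 difference, ionomycin minus naive, of each of the 46 proteasome genes, with its 95% confidence interval from limma and a colour for each class. All points lie between -0.32 and 0.32, and all intervals lie inside the dotted lines at 2-fold.

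The 8 alpha subunit genes had a median difference of -0.02, and the differences ran from -0.29 (Psma1) to 0.06 (Psma8). Psma1 encodes one of the ring's subunits and had the lowest difference of the class. It was at 10.17, 9.66 and 9.70 in ionomycin replicates 1, 2 and 3, against 10.46, 10.06 and 9.88 in naive replicates 1, 2 and 3. Each ionomycin array was below the naive array of the same number. Both replicate 1 arrays were high, and the groups overlapped because ionomycin replicate 1 lay above naive replicates 2 and 3. The difference was -0.29 ± 0.20 (SE; limma adjusted p = 0.471), 0.122 with the replicate block and 0.131 without both replicate 1 arrays. The difference was -0.126 without naive replicate 1 and -0.455 without ionomycin replicate 1. Psma8, the testis-specific alternative of Psma7, was just above background with 6.09 ± 0.07 in ionomycin arrays and 6.03 ± 0.10 in naive arrays (SD, n = 3 each). The other 6, Psma2 to Psma7, differed by -0.09 to 0.05.

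Among the beta subunits, the 6 measured members of the constitutive core, Psmb1 to Psmb4, Psmb6 and Psmb7, differed by -0.08 to 0.09. Psmb6, the constitutive partner of the immunosubunit Psmb9, had 9.60, 9.22 and 9.18 in ionomycin replicates 1 to 3, against 9.68, 9.27 and 9.11 in naive replicates 1 to 3. Replicate 1 was the high array in each group and the groups overlapped, with a difference of -0.01 ± 0.18 (SE; limma adjusted p = 0.971). Psmb7, the constitutive partner of Psmb10, was at 10.78, 10.25 and 10.22 with ionomycin, against 10.58, 10.26 and 10.14 in naive arrays. It showed the same high replicate 1 and overlapping groups, with a difference of 0.09 ± 0.19 (SE; limma adjusted p = 0.810). Both differences turned sign when some single arrays were left out.

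The interferon-inducible subunits had differences of both signs, and none passed. Psmb8 encodes a chymotrypsin-like immunosubunit and had 9.01, 9.06 and 9.02 in ionomycin replicates 1 to 3, against 9.08, 9.25 and 9.14 in naive replicates 1 to 3. All ionomycin arrays were below all naive arrays, by a difference of -0.12 ± 0.06 (SE; limma adjusted p = 0.372), which was -0.0773 without naive replicate 2. Psmb9, which replaces Psmb6, was at 7.25, 7.56 and 7.44 with ionomycin, against 7.37, 7.94 and 7.81 in naive arrays. It was lower with ionomycin at each replicate number, and here replicate 1 was the low array of both groups. The groups overlapped because naive replicate 1 lay below ionomycin replicates 2 and 3. The difference was -0.29 ± 0.16 (SE; limma adjusted p = 0.404), 0.136 with the replicate block and 0.0781 without both replicate 1 arrays. The difference was -0.171 without naive replicate 2 and -0.456 without naive replicate 1. Psmb10, which replaces Psmb7, had 8.51, 8.51 and 8.57 in ionomycin arrays, against 8.45, 8.36 and 8.11 in naive arrays. Its groups did not overlap, the naive replicate 3 array was the lowest, and the difference was 0.22 ± 0.10 (SE; limma adjusted p = 0.326), and 0.127 without that array.

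The partners were also compared within arrays. The difference between ionomycin and naive arrays was lower for Psmb9 than for Psmb6 by -0.27, and higher for Psmb10 than for Psmb7 by 0.13. An exact permutation test over the arrays, two-sided, gave p = 0.5 for each of the 2 pairs, and 0.5 after Benjamini-Hochberg adjustment over them. With 3 arrays against 3 the smallest p this test can give is 0.10. With arrays paired by replicate number, a test added after the data were seen, the difference for Psmb9 less that for Psmb6 was -0.04, -0.33 and -0.45 at numbers 1, 2 and 3, below 0 at all 3. An exact sign-flip permutation test, two-sided, gave p = 0.25, the smallest it can give with 3 pairs (0.5 adjusted over both gene pairs). For Psmb10 less Psmb7 the values were -0.15, 0.17 and 0.37, with p = 0.5 in the same exact test. Single arrays moved both results. For Psmb9 and Psmb6 the result was -0.0580 without ionomycin replicate 1 and -0.605 without naive replicate 1. For Psmb10 and Psmb7 it was 0.0134 without ionomycin replicate 3 and 0.324 without ionomycin replicate 1. Without both replicate 1 arrays the results were -0.390 and 0.270. The pair of Psmb8 was not analysed here.

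Psmb11 encodes the beta subunit of the thymoproteasome, known from cortical epithelium of the thymus. Its signals of 6.29, 6.29 and 6.46 in ionomycin replicates 1 to 3, against 5.89, 6.08 and 6.18 in naive replicates 1 to 3, lay near the background of 5.99. The groups did not overlap and the difference was 0.30 ± 0.10 (SE; limma adjusted p = 0.254, 0.111 with the replicate block and 0.0711 in the 2-level block).

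In the class I peptide pathway outside the family more genes had differences below 0 than above. Of 13 measured genes of 15 listed, 9 were below 0 (69.2%, against 35.4% of all genes and 40.9% of genes above background). The median difference of the 13 was -0.12, and 0 passed in limma. Before adjustment 1 was higher at the same threshold (7.69%, against 10.2% of all genes) and 1 lower (7.69%, against 5.44%). Of genes above background 12.3% were higher and 8.22% lower. With the replicate block 4 were lower before adjustment (30.8%, against 9.41% of all genes and 14.2% of genes above background). After adjustment 1 passed as higher and 0 as lower, against 0.395% and 0.11% of all genes. With the block of 2 levels 1 passed as higher and 1 as lower, against 2.25% and 2.47%. Without both replicate 1 arrays 1 passed as higher and 2 as lower, against 1.41% and 1.43%. Lap3, an interferon-inducible aminopeptidase that trims peptides, had 9.98, 9.72 and 9.84 with ionomycin, against 9.30, 8.86 and 8.79 in naive arrays. Its groups were apart by a difference of 0.86 ± 0.15 (SE; limma adjusted p = 0.0943), and it passed with the replicate block (0.04998), with the block of 2 levels (0.00820) and without both replicate 1 arrays (0.00659). Ide, the insulin-degrading enzyme, differed by -0.45 ± 0.11 (SE; limma adjusted p = 0.188, 0.0248 with the block of 2 levels and 0.0228 without both replicate 1 arrays). Nlrc5, which drives class I genes, was not analysed here.

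The 6 ATPases of the cap showed no difference near the test's threshold. Their differences ran from -0.19 (Psmc2) to 0.05 (Psmc6), with a median of -0.02, and the groups of all 6 overlapped. As a class mean they had a log2 signal of 10.03, 9.58 and 9.58 in ionomycin replicates 1 to 3, against 10.11, 9.67 and 9.54 in naive replicates 1 to 3. Replicate 1 was thus the high array in both groups, and replicates 2 and 3 of the groups lay close together. Psmc2 was lower with ionomycin at all 3 replicate numbers (limma adjusted p = 0.618, and 0.176 with the replicate block).

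The 14 Psmd genes had a median difference of -0.03. The subunits of the cap itself, the 11 other than Psmd5, Psmd9 and Psmd10, stayed between -0.14 (Psmd2, a scaffold of the base) and 0.14 (Psmd14, the deubiquitinase of the lid). Psmd14 was higher with ionomycin at all 3 replicate numbers (limma adjusted p = 0.733, and 0.188 with the replicate block). Psmd4, a ubiquitin receptor, was at 9.51, 9.37 and 9.34 with ionomycin, against 9.48, 9.42 and 9.33 in naive arrays. Its groups overlapped, and its difference of 0.0022 ± 0.07 (SE; limma adjusted p = 0.990) was the smallest of the family in size.

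Psmd5, Psmd9 and Psmd10 encode chaperones that help the base of the cap to assemble. Psmd5 had the highest difference of the 46 members, with 10.79, 10.36 and 10.37 in ionomycin replicates 1 to 3, against 10.09, 10.23 and 10.25 in naive replicates 1 to 3. The groups did not overlap, the replicate 1 arrays being the highest of the ionomycin group and the lowest of the naive group. The difference was 0.32 ± 0.13 (SE; limma adjusted p = 0.317), and 0.13 without both replicate 1 arrays (adjusted p = 0.270). The difference was 0.179 without ionomycin replicate 1 alone. Psmd10, also called gankyrin, was at 8.87, 8.65 and 8.66 with ionomycin, against 8.998, 8.97 and 8.90 in naive arrays. It was lower in all ionomycin than in all naive arrays, with a difference of -0.23 ± 0.08 (SE; limma adjusted p = 0.270, 0.0723 with the block of 2 levels and 0.0876 without both replicate 1 arrays). Psmd9 differed by -0.04.

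The promoters of Psmd5, with the highest difference, and of Psmb9, which ran against the core subunits across replicate numbers, are shown whole. Capitals mark the GC box on either strand, 3 in Psmd5 and 1 in Psmb9, and the CCAAT box of Psmb9, which lies on the other strand and reads ATTGG.
Psmd5 (chr2:34870913-34871212, reverse strand): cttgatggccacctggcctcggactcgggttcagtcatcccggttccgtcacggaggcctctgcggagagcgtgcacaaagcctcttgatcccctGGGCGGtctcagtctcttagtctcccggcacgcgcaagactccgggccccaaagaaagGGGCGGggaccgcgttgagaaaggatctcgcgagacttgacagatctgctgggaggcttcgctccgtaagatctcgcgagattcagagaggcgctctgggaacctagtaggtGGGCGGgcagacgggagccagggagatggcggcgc
Psmb9 (chr17:34187281-34187580, reverse strand): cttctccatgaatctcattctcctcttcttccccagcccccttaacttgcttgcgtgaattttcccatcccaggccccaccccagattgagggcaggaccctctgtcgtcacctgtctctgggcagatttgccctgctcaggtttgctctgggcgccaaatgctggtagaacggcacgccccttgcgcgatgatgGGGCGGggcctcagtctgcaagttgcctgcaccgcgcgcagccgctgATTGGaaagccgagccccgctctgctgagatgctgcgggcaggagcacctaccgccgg
The promoter of Psmd5 held 0 CCAAT boxes.

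The activators and the inhibitor differed little. Psme1 encodes an interferon-inducible subunit of the activator that caps the core without ATP. It was at 9.91, 9.88 and 9.88 in ionomycin replicates 1 to 3, against 9.81, 9.83 and 9.71 in naive replicates 1 to 3. All ionomycin arrays were above all naive arrays, by 0.11 ± 0.06 (SE; limma adjusted p = 0.375), and by 0.0740 without naive replicate 3. Psme3, the nuclear relative of Psme1, had 11.16, 10.98 and 11.01 with ionomycin, against 11.19, 10.996 and 10.84 in naive arrays, and the groups overlapped (0.05 ± 0.10, SE; limma adjusted p = 0.835). Psme4 was at 9.27, 8.99 and 8.94 with ionomycin, against 9.30, 8.999 and 9.04 in naive arrays, and these groups overlapped too (-0.04 ± 0.12, SE; limma adjusted p = 0.861). Psmf1, which encodes the inhibitor PI31, had 7.76, 7.78 and 7.81 with ionomycin, against 7.80, 7.94 and 7.89 in naive arrays. Only 1 ionomycin array, replicate 3, reached above the lowest naive array, and the difference was -0.09 ± 0.06 (SE; limma adjusted p = 0.464), or -0.0570 without naive replicate 2.

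The 4 core assembly chaperones held the lowest difference of the family (Psmg2) and a difference among its highest (Psmg3). Psmg1 and Psmg2 form a heterodimer on the alpha ring, and Psmg3 and Psmg4 form another. Psmg1 was at 8.14, 8.02 and 7.97 in ionomycin replicates 1 to 3, against 8.82, 8.19 and 8.03 in naive replicates 1 to 3, where the naive replicate 1 array stood high and the groups overlapped. The difference was -0.30 ± 0.20 (SE; limma adjusted p = 0.469), and -0.11 without both replicate 1 arrays. The difference was -0.0646 without naive replicate 1 and -0.464 without naive replicate 3. Psmg2 had 9.07, 8.96 and 9.16 with ionomycin, against 9.70, 9.28 and 9.16 in naive arrays. The groups were apart only by the replicate 3 arrays' difference of -0.0042, and the mean difference of -0.32 ± 0.15 (SE; limma adjusted p = 0.339) was -0.16 without both replicate 1 arrays and -0.160 without naive replicate 1 alone.

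The other dimer is that of Psmg3 and Psmg4. Psmg3 was at 6.66, 6.54 and 6.67 in ionomycin replicates 1 to 3, against 6.21, 6.38 and 6.40 in naive replicates 1 to 3, and all ionomycin arrays were above all naive arrays. Its difference of 0.29 ± 0.08 (SE; limma adjusted p = 0.200) had the smallest p of the family, with an adjusted p of 0.133 in the replicate block and 0.168 without both replicate 1 arrays. Psmg4 differed by -0.04 (limma adjusted p = 0.927). Pomp, a further assembly factor outside the Psm names that matures the beta subunits, differed by -0.05 ± 0.16 (SE; limma adjusted p = 0.894).

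**Figure D2:**
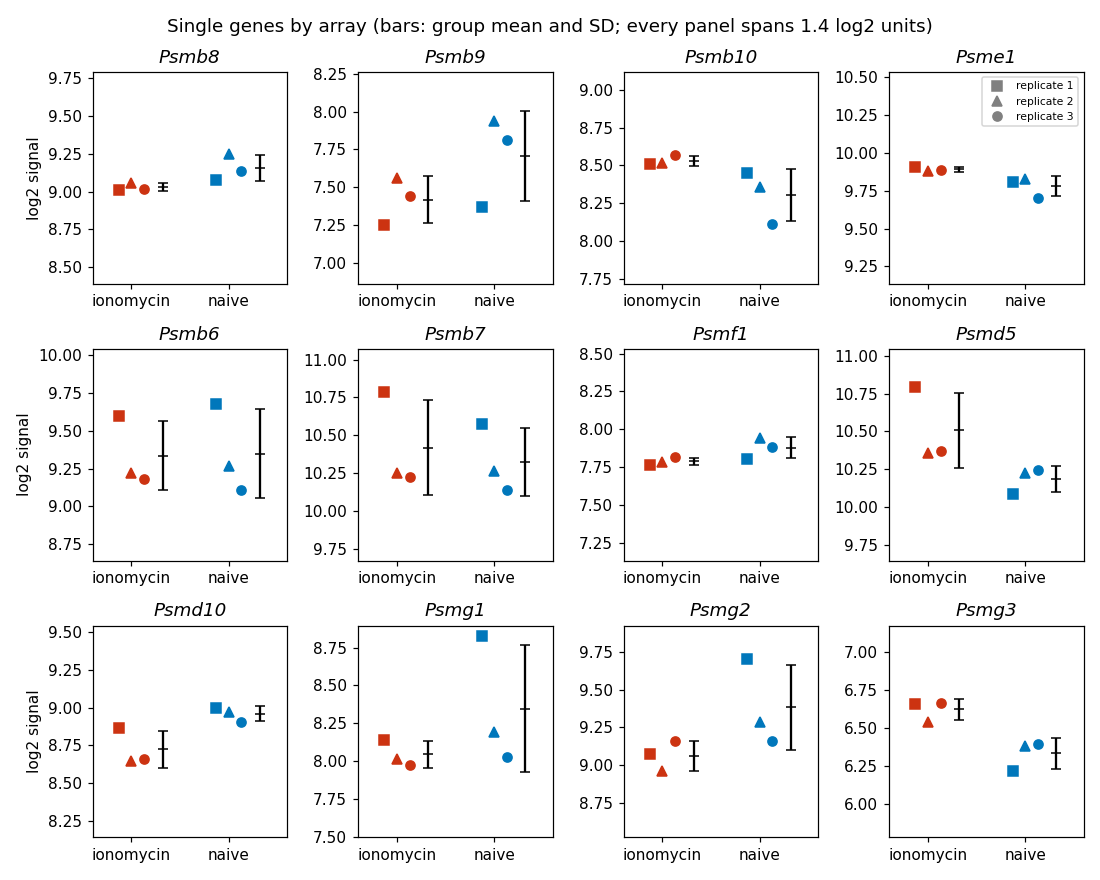
Log2 signal of 12 proteasome genes in each array, ionomycin left and naive right, with a marker shape for each replicate number and bars for the mean and SD of 3 arrays. Psmg3 (6.54 to 6.67 with ionomycin, 6.21 to 6.40 naive) and Psmd10 (8.65 to 8.87 with ionomycin, 8.90 to 8.998 naive) show groups that do not overlap, while Psmb6 and Psmb7 show both replicate 1 arrays high.

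Counted by array rather than by mean, 5 members had every ionomycin array above every naive array (10.9%, against 18.9% of all genes), namely Psmb10, Psmb11, Psmd5, Psme1 and Psmg3. A further 3 had every ionomycin array below (6.52%, against 7.31% of all genes), namely Psmb8, Psmd10 and Psmg2. For genes above background these shares were 19.4% above and 10.6% below. Of these 8 members, 4 were among the 7 assembly factors (Psmg1 to Psmg4, Psmd5, Psmd9 and Psmd10), 3 among the 4 interferon-inducible members (Psmb8, Psmb9, Psmb10 and Psme1) and 1 among the other 35. This grouping by role was made after the values were seen, and no test was made on it.

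Most of the spread of proteasome genes went with the replicate number. The replicate 1 array was the highest of its group in both groups for 35 of the 46 members (76.1%), against 24.7% of genes above background, and the lowest in both for 3 (6.52%, against 34.9%). It exceeded the mean of replicates 2 and 3 by a median of 0.32 in ionomycin arrays and 0.29 in naive arrays, against -0.03 and -0.06 for genes above background. For the Psmc ATPases these medians were 0.46 and 0.52, and every member of that class, as of Psma, had replicate 1 highest in both groups. Psmd1, a scaffold of the cap's base, had the largest excess of the ionomycin arrays at 0.68, with 0.66 in naive arrays, where Psmg1 had the largest at 0.72.

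The granule protease genes Mcpt8 and Prss34 of a basophil marker list moved with the same arrays. Mcpt8 was at 10.60, 9.14 and 9.11 in ionomycin replicates 1 to 3, against 10.36, 9.20 and 9.03 in naive replicates 1 to 3. Prss34 was at 10.70, 8.85 and 8.61 in ionomycin arrays, against 10.35, 8.94 and 8.70 in naive arrays. Replicate 1 was far the highest of each group for both genes, but not for the third gene of the list. That gene, Cd200r3, was at 11.01, 11.01 and 11.06 in ionomycin arrays, against 11.41, 11.32 and 11.22 in naive arrays, so that it was lower in every ionomycin array. The summed level of the list was 12.37, 11.59 and 11.59 in ionomycin replicates 1 to 3, against 12.38, 11.82 and 11.70 in naive replicates 1 to 3. The summed mast cell level was 16.12, 16.11 and 16.10 in ionomycin arrays, against 16.22, 16.16 and 16.19 in naive arrays. Such a sum adds unlogged signals, so bright genes such as Cpa3 carry it and single markers can differ. Hdc was at 12.21, 11.87 and 11.88 in ionomycin replicates 1 to 3, against 10.37, 11.21 and 11.26 in naive replicates 1 to 3. Of the 9 markers, 3 had differences above 0 and 6 below (66.7%, against 35.4% of all genes and 40.9% of genes above background). The 9 differences ran from -0.62 (Ms4a2) to 1.04 (Hdc). The part of other cells in the replicate 1 pattern was not tested, and neither was that of RNA quality.

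**Figure D3:**
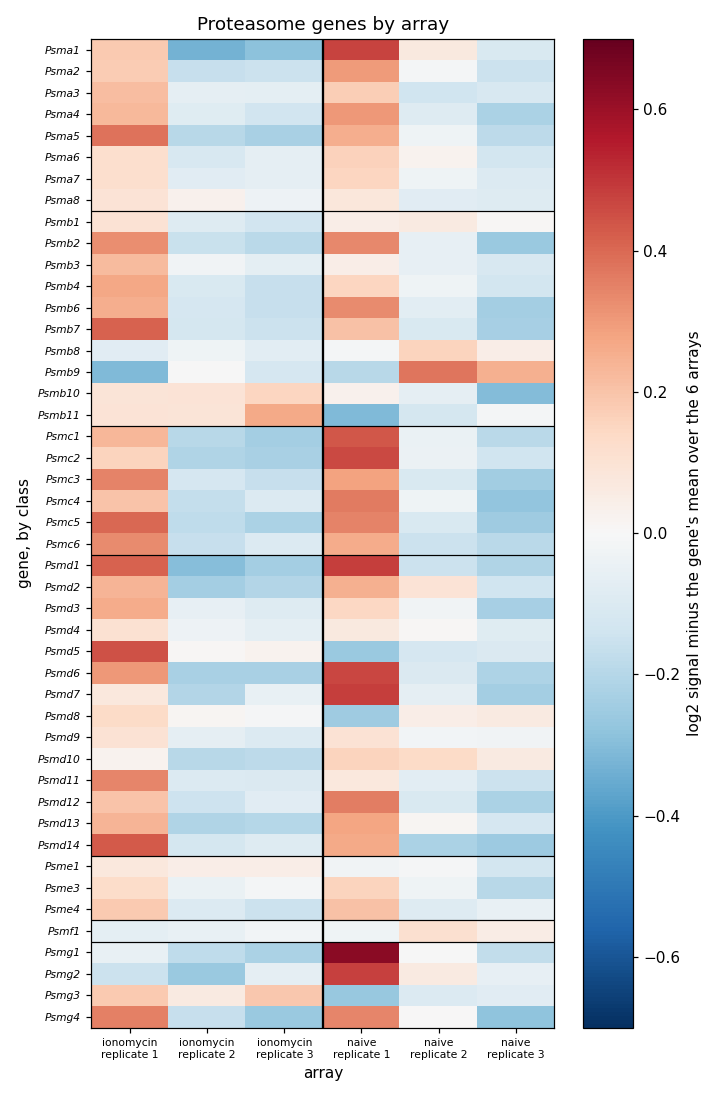
Log2 signal of the 46 proteasome genes in the 6 arrays, as the deviation from each gene's mean over the arrays, with genes by class and ionomycin arrays left of naive arrays. For 35 genes the replicate 1 array is the highest of its group in both groups, and for Psmb8, Psmb9 and Psmf1 it is the lowest in both.

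Split into parts, a median of 6.27% of a member's sum of squares went with treatment, 87.0% with the replicate number and 6.05% with the rest. For genes above background the medians were 31.6%, 41.4% and 13.5%. More of the sum of squares went with the number than with treatment for 36 of the 46 members, against 10752 of the 19200 genes above background. The number has more levels than treatment, which enlarges its part even where neither has an effect. The other 10 members were Psmb8, Psmb10, Psmb11, Psmd5, Psmd8, Psmd10, Psme1, Psmf1, Psmg2 and Psmg3. By role, 4 of the 7 assembly factors and 3 of the 4 interferon-inducible members were among these 10, and 3 of the other 35. The roles were grouped after the values were seen, and no test was made on them. The median share with treatment was 46.0% for the assembly factors, 56.8% for the interferon-inducible members and 3.77% for the others. Replicate 1 was highest in both groups for 31 of those 35, for 4 of the 7 assembly factors and for 0 of the 4 interferon-inducible members. Psmb9, Psmb8 and Psmf1 were the 3 members with replicate 1 lowest in both groups, and for Psmb9 the replicate 1 array lay below the mean of the other arrays by -0.25 in the ionomycin group and -0.51 in the naive group.

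**Figure D4:**
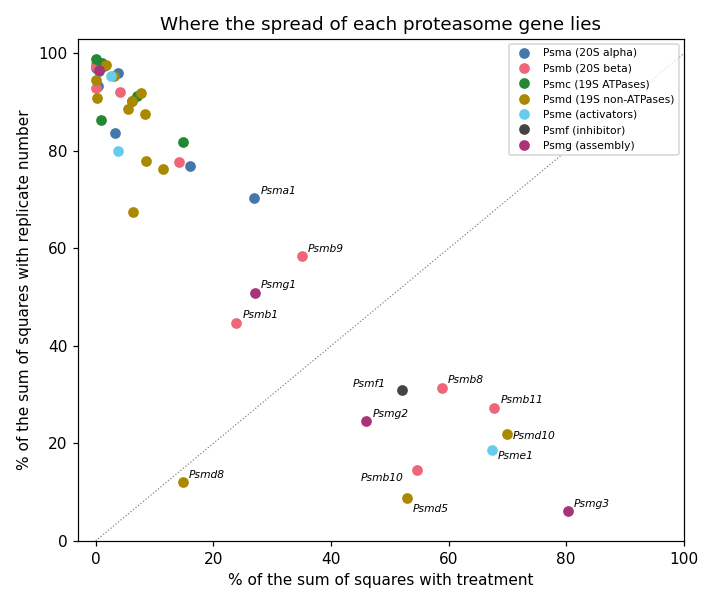
Share of each proteasome gene's sum of squares over the 6 arrays that went with treatment (x axis, %) and with the replicate number (y axis, %), coloured by class, with equal shares on the dotted line. A total of 36 genes lie above the line, most of them near the top left corner, and Psmg3 lies farthest to the right at 80.3% with treatment. Of the 19200 genes above background, 10752 had the larger share with the number.

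Genes that control or work with the proteasome were looked at for comparison. Over 5 lists, 62 of 75 genes were measured and 0 passed in limma, while at an unadjusted p under 0.05 there were 7 higher (11.3%, against 10.2% of all genes) and 8 lower (12.9%, against 5.44%). Of the 13 measured regulators of proteasome gene transcription, 0 passed, and the median difference was -0.02. Before adjustment at that threshold 4 were higher (30.8%, against 10.2% of all genes) and 2 lower (15.4%, against 5.44%). Nfe2l1, the transcription factor that induces proteasome genes when proteolysis is impaired, had 10.30, 10.33 and 10.27 in ionomycin replicates 1 to 3, against 9.90, 10.15 and 10.11 in naive replicates 1 to 3. All ionomycin arrays were above all naive arrays, by 0.25 ± 0.08 (SE; limma adjusted p = 0.252). Nfe2l2, its relative of the oxidative stress response, differed by -0.15 ± 0.12 (SE; limma adjusted p = 0.514), and Maff, a small partner of both, by 0.45 ± 0.13 (adjusted p = 0.220).

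Hsf2, a heat shock factor, stood out in size. Its signals were 7.76, 8.18 and 8.16 in ionomycin replicates 1 to 3, against 6.92, 6.00 and 6.16 in naive replicates 1 to 3. Naive replicates 2 and 3 lay near the background of 5.99, which limits what the fold can say. The groups were apart and the difference of 1.67 ± 0.26 (SE), a 3.19-fold higher signal, did not pass in limma (adjusted p = 0.0731, 0.0912 with the replicate block). It passed with the block of 2 levels (0.0270) and without both replicate 1 arrays (0.000809).

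Of the 16 measured partners and assembly helpers, 0 passed, 2 were higher (12.5%) and 2 lower (12.5%) before adjustment at that threshold, against 10.2% and 5.44% of all genes, and the median difference was -0.05. Fbxo7, an F-box protein that binds Psmf1, differed by -0.39 ± 0.09 (SE; limma adjusted p = 0.175, 0.0262 with the block of 2 levels), with 8.83, 8.69 and 8.74 in ionomycin arrays, against 9.33, 9.09 and 9.03 in naive arrays. Its groups did not overlap. Ubqln1, a shuttle that brings ubiquitinated proteins to the proteasome, differed by 0.21 ± 0.07 (SE; limma adjusted p = 0.276). The 7 measured genes of ubiquitin activation and transfer were all below 0 (100%, against 35.4% of all genes and 40.9% of genes above background). Their median was -0.09. None passed after adjustment, and 2 were lower before it at that threshold (28.6%, against 5.44%). These were Uba6, a ubiquitin-activating enzyme (-0.38 ± 0.09, SE; limma adjusted p = 0.163, 0.0405 without both replicate 1 arrays), and the conjugating enzyme gene Ube2r2 (-0.19 ± 0.06, SE; limma adjusted p = 0.246). Of the 13 measured genes of p97 and ubiquitin receptors, 0 passed and the median was -0.05. Before adjustment 1 was lower at that threshold (7.69%, against 5.44% of all genes and 8.22% of genes above background). That gene was Derl2 of the endoplasmic reticulum export channel (-0.15 ± 0.05, SE; limma adjusted p = 0.286), followed by Faf1, a partner of p97 (-0.21 ± 0.09, SE; limma adjusted p = 0.326).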

How the data were processed

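Total RNA of 6 BMMC samples, 3 ionomycin and 3 naive, was hybridised, after biotin labelling, to Affymetrix whole-transcript arrays, per the labels. The values are the authors' deposited log2 signals, made with the R package oligo per the submitters' processing notes; version, summarization, normalization and build were not given in the sources used here. The log2 scale was inferred from the range of values, and any centring by the authors is unknown. Medians of the ionomycin columns were 5.96, 6.03 and 6.03, against 5.88, 5.95 and 5.99 for naive columns, so differences of about that size can move with the normalization.

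Of 65770 rows, 30439 carried 1 symbol, 2146 several and 33185 none. Entrez IDs gave 827 rows a newer symbol from RefSeq genes (GRCm38.p6, 22653 rows found). The row with the highest 6-array mean stood for each of 30102 genes. Background was the 95th percentile of 1752 chemosensory receptor genes. Ionomycin was compared with naive in R 4.3.3 by limma 3.58.1, with lmFit and eBayes, over all genes, two-sided, with Benjamini-Hochberg adjustment, and every adjusted p of a gene comes from it. The fit was also run on simulated data with independent noise and shifts larger than any member difference. That run does not show how well differences of the members' size are found. Values were read with data.table (version 1.17.8), and tables and exact permutation tests were made with numpy 2.4.6, scipy 1.17.1 and pandas 2.3.3.

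The family, lists and tests were chosen with earlier results of these data known, though each gene's membership followed its symbol alone. The genes named with all array values were those past the threshold, the 10 members with the smallest p, the 3 lowest and 3 highest differences, and Psmb6 to Psmb10, Psme1, Psme3, Psme4 and Psmd4 in every case. Of each related list (partners and assembly helpers, regulators of transcription, ubiquitin activation, p97 and ubiquitin receptors, class I peptide supply) the 2 genes with the smallest p were named, and Pomp, Nfe2l1 and Nfe2l2 in every case. Psmf1 matched the symbol rule and was kept as a class of its own.

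Groups and replicate numbers come from the titles. Arrays of the same number deviated together from their group means, with r = 0.711, 0.476 and 0.469 over genes for numbers 1, 2 and 3. Each r exceeds 0.1, so a fit with that number as a block accompanies the results. Correlations of numbers 2 and 3 crossed were as high (0.481 and 0.524), so the pairing is mostly that of replicate 1. Alternatives were this block, quantile normalization, centring on array medians, a filter on dim genes, the mean of a gene's rows, eBayes with trend and robust settings, leaving out each array and, added after the data were seen, a block of 2 levels, leaving out both replicate 1 arrays and an exact paired test of the subunit pairs. No set test was made.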

Additional observations from a re-analysis of the deposited data

How the results depend on the processing

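The counts of 0 proteasome genes higher and 0 lower held in all 14 alternative fits, in which the smallest adjusted p of any member was 0.0595 (Psma1, block of 2 levels, limma). Over all genes, limma called 87 higher and 18 lower in the main fit. It called 1 and 0 without ionomycin replicate 2, and 95 and 55 without naive replicate 1. Where so few genes were called, a count of 0 members says little about stability. Of 17 named members, 12 kept the sign of their difference in all 14 alternatives. A member's difference could not change with either block, the filter on dim genes, the mean of rows or the eBayes settings. Its sign was thus open to change only in the other alternatives. The replicate block, a paired fit, called 1 related gene higher (Lap3), against 0.395% of all genes. It changed no other call of a member or related gene. Zfand2a and Tap1 were named after their values were seen. Of the 62 measured related genes, 3 were higher with the block of 2 levels (Hsf2, Lap3, Zfand2a), against 2.25% of all genes. Without both replicate 1 arrays 2 were higher (Hsf2, Lap3), against 1.41% of all genes. With 1 array left out 0 to 2 were higher, the 2 being the same genes without naive replicate 1. Related genes lower numbered 2 with the block of 2 levels (Fbxo7, Ide), against 2.47% of all genes. They numbered 3 without both replicate 1 arrays (Ide, Tap1, Uba6), against 1.43%, and 0 with 1 array left out. Psmb6 (-0.01 as deposited) was at 0.0346 after quantile normalization and 0.0168 without both replicate 1 arrays, and from -0.146 to 0.149 with 1 array left out. Psme3 (0.05) was at -0.0199 after quantile normalization and -0.0206 after centring, and from -0.0397 to 0.136 with 1 array left out. Psmd4 (0.0022) was at -0.0638 after centring and -0.0142 without both replicate 1 arrays, and from -0.0502 to 0.0382 with 1 array left out. With 1 array left out Psmb7 ran from -0.0894 to 0.218 and Psme4 from -0.147 to 0.0475. The median of Psmb ran from -0.12 (without ionomycin replicate 1) to 0.14 (without naive replicate 1) and that of all members from -0.12 to 0.11 in the same settings. The range with 1 array left out was -0.109 to 0.0735 for the median of Psma, -0.174 to 0.156 for Psmc, -0.112 to 0.101 for Psmd, -0.0397 to 0.127 for Psme and -0.311 to 0.0265 for Psmg, each highest without naive replicate 1. It was lowest without ionomycin replicate 1 for Psmc and Psmd, and without naive replicate 3 for Psma, Psme and Psmg. After centring, the median of Psmf was -0.16. The cause of these shifts was not tested. Over all genes 82.9% of calls were higher, against 68.3% after centring (69 higher, 32 lower). Averaging rows could not change a member's difference, since each has 1 row. Precision is limited by 3 arrays per group, and differences near the size of the array medians' shift depend on the unknown normalization.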
